A study of Rattus norvegicus with 6 samples.

Results

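Runx2, Bglap and Spp1 are 3 genes by which osteoblasts, the cells that build bone, are commonly recognised, and all 3 had lower levels in the femur of sleep-deprived rats than in any control, as did 8.05% of the 13431 genes tested. None of the differences passed the main test over all genes. The 3 genes were chosen with earlier results of these data known, so their standing among all genes is a description only. They were taken by their Ensembl gene IDs, ENSRNOG00000020193 (Runx2), ENSRNOG00000019607 (Bglap, which encodes osteocalcin) and ENSRNOG00000043451 (Spp1, which encodes osteopontin). All 3 IDs were present among the 32545 gene rows of the deposited count table. The rat gene table used here holds each of the 3 symbols but pairs none of its 47357 genes with an Ensembl ID, so the pairs of ID and symbol could be neither checked nor contradicted.

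The study asked what chronic sleep deprivation (CSD) does to gene expression in growing bone. Polyadenylated RNA from the femur of Wistar rats, an outbred laboratory strain, was sequenced in 3 control and 3 CSD libraries. The labels give no other difference between the groups than the deprivation and the age, which is 12, 13 and 14 weeks for controls 1, 2 and 3 and 15, 16 and 17 weeks for CSD 1, 2 and 3, whereas the series description gives 12 weeks for both groups. Labelled age and deprivation therefore cannot be told apart. The labels are silent on sex, the deprivation method, the part of the femur, the handling of marrow and whether each library came from its own animal, so p-values measure the spread between these libraries only. In bulk tissue a lower level can come from fewer osteoblasts, from less RNA per osteoblast or from a change in other cells, and these cannot be told apart.

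RUNX2 is the transcription factor that commits mesenchymal cells to the osteoblast lineage, and it binds short DNA motifs in many bone matrix genes. Osteocalcin is a small vitamin K-dependent protein secreted by mature osteoblasts, and its promoter is a classical target of RUNX2. Osteopontin is an acidic phosphoprotein of bone matrix that binds mineral and cell-surface integrins; osteoblasts, osteocytes and osteoclasts make it, and so do macrophages and other cells outside bone.

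The 250 bases before the first Runx2 start and before the Bglap and Spp1 starts are shown, because RUNX2 is known to act on such promoters. Whether RUNX2 had a part in the lower levels was not tested. These windows are RefSeq sequences on build GRCr8, 5′ to 3′ on the gene's own strand, in lower case with capitals for matches. The matches are to AACCACA or AACCGCA, which are among the forms of the motif that RUNX proteins recognise, and to TATAAA, the core of the TATA box. Other forms of the RUNX motif were not searched. Both strands were searched, and no match overlapped another.
Runx2, first start, chr9:23664808-23665057, plus strand: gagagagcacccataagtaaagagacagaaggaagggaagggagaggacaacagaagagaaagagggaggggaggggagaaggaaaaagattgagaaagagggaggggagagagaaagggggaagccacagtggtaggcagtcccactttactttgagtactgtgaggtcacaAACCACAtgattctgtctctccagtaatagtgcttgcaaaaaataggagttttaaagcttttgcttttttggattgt
Bglap, chr2:176137319-176137568, minus strand: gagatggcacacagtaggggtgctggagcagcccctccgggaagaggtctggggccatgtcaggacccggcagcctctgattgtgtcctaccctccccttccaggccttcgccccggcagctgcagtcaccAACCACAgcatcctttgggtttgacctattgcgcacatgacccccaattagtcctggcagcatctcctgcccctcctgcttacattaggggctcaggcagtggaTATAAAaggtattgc
Spp1, chr14:5619805-5620054, minus strand: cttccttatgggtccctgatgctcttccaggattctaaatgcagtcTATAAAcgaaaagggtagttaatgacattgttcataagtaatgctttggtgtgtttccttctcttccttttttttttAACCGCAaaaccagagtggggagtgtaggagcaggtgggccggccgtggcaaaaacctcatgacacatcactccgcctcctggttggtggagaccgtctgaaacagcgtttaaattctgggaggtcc

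The Runx2 window held AACCACA 77 to 71 bases before the start. The Bglap window held AACCACA 119 to 113 bases before the start and TATAAA 15 to 10 bases before it. The Spp1 window held AACCGCA 127 to 121 bases before the start and TATAAA, farther away, 204 to 199 bases before it. RefSeq lists a second Runx2 start. None of the 3 motifs lay in the 250 bases before it, and that window is not printed. Among 33469 rat windows of the same length AACCACA occurred in 4.59%, AACCGCA in 1.2%, either of them in 5.76%, and TATAAA in 12.9%. These matches describe the letters of the windows; no binding was measured in the study.

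Libraries held 8366443 to 9572898 reads in genes, 36.2% to 38.2% of all their reads. Levels are given as CPM, gene counts per 1000000 reads after TMM scaling for library composition. The factors of that scaling were 1.02 to 1.07 in controls and 0.912 to 1.00 in CSD, and the share of reads in genes was 36.2% to 36.7% in controls and 37.1% to 38.2% in CSD. Both separated the groups, and the part of the share of reads in genes in the results was not tested.

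Runx2, the lineage factor, stood at 63.3, 83.9 and 59.2 CPM in controls 1, 2 and 3. In CSD 1, 2 and 3 it stood at 45.6, 45.0 and 47.5 CPM. Every CSD library lay below every control, and the lowest control was 1.25 times the highest CSD library. The control mean was 68.8 ± 13.3 CPM and the CSD mean 46.0 ± 1.30 CPM (SD, n = 3 each). The CSD libraries were nearly alike, with 391, 392 and 403 reads. Their coefficient of variation of 2.83% was smaller than the counting error of about 5.03% that such read numbers carry, whereas the controls varied by 19.3% against a counting error of about 4.02%. The log2 fold change of CSD minus control was -0.58 (SE 0.15, 95% interval -0.93 to -0.23), a ratio of 0.668. This did not pass the threshold of 0.05 in edgeR's quasi-likelihood test after Benjamini-Hochberg adjustment over all 13431 tested genes (adjusted p = 0.248, unadjusted p = 0.00468).

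Bglap, the osteocalcin gene of mature osteoblasts, stood at 1182, 2399 and 2012 CPM in controls 1, 2 and 3. In CSD 1, 2 and 3 it stood at 1002, 932 and 899 CPM. The groups did not overlap, but control 1 was close to the CSD libraries, at 1.18 times the highest of them, while controls 2 and 3 were far above. The control mean was 1864 ± 622 CPM and the CSD mean 945 ± 52.4 CPM (SD, n = 3 each). Controls spanned a 2.03-fold range and CSD libraries a 1.11-fold range. The coefficient of variation among CSD libraries was 5.55%, above the counting error of about 1.11%. The log2 fold change was -0.98 (SE 0.25, 95% interval -1.54 to -0.42), a ratio of 0.507. It did not pass the threshold either (edgeR, adjusted p = 0.230, unadjusted p = 0.00360). Without control 1 the log2 fold change was -1.22 and passed (edgeR, adjusted p = 0.0371), in a fit where 0.523% of 13771 tested genes were called lower in CSD. Without each other library in turn it did not pass (adjusted p 0.131 to 0.621).

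Spp1, the osteopontin gene, stood at 1161, 2092 and 1267 CPM in controls 1, 2 and 3. In CSD 1, 2 and 3 it stood at 606, 879 and 822 CPM. Control 2 was the highest library and CSD 1 the lowest, and the lowest control was 1.32 times the highest CSD library, the widest gap of the 3 genes. The control mean was 1507 ± 509 CPM and the CSD mean 769 ± 144 CPM (SD, n = 3 each). Among CSD libraries it had a coefficient of variation of 18.8% against a counting error of about 1.24%. The log2 fold change was -0.97 (SE 0.25, 95% interval -1.55 to -0.39), a ratio of 0.510, and did not pass the threshold (edgeR, adjusted p = 0.245, unadjusted p = 0.00454). Without control 2 it was -0.66 (edgeR, adjusted p = 0.510).

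**Figure D1:**
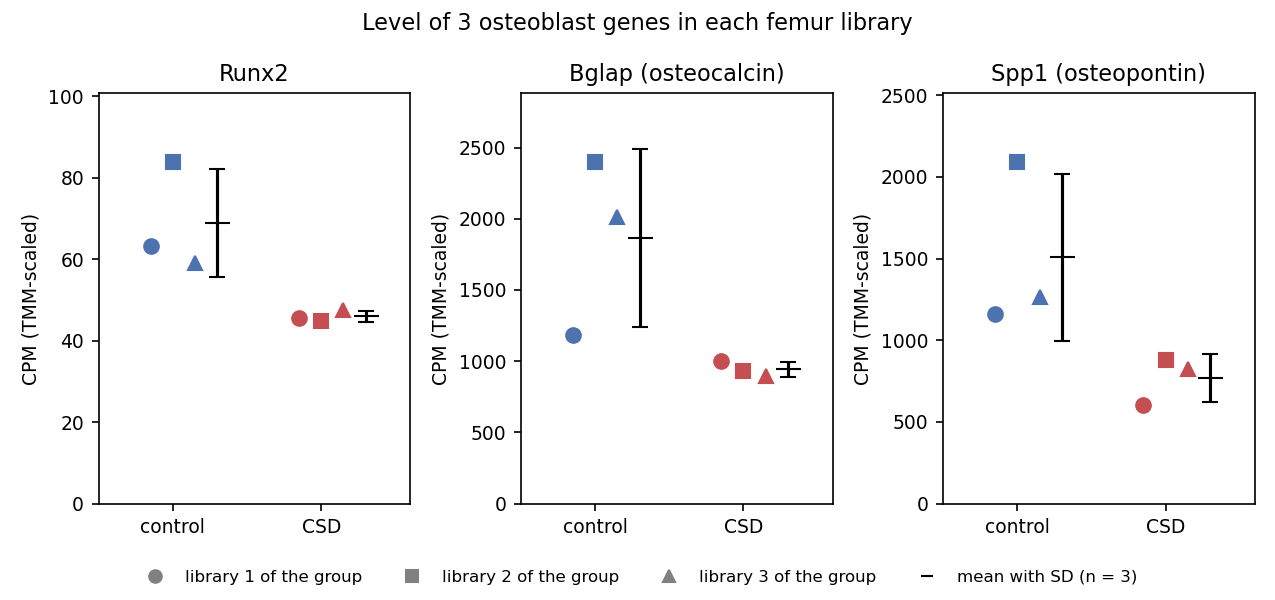
Level of Runx2, Bglap and Spp1 in each library, in CPM after TMM scaling on axes that start at 0, with the mean and SD of each group of 3 beside the points; marker shapes stand for the library number. Every CSD library lies below every control for each gene, control 2 is the highest control throughout, and control 1 of Bglap (1182 CPM) lies just above the CSD libraries (899 to 1002 CPM).

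All 3 genes were lower in CSD without overlap of the groups, against the 8.05% of tested genes given above. All 3 also had an unadjusted p under 0.05 with a lower level in CSD, which held for 6.39% of the tested genes. Since the choice of the 3 genes followed earlier results of these data, the comparison with these shares is a description only. After adjustment edgeR called 0 of the 3 genes and 0 of the tested genes (0% called), with 1679 genes at an unadjusted p under 0.05 in either direction. Limma-voom also called none of them, and DESeq2, fitted to all genes with reads, called 298. Bglap and Spp1 were among the genes called lower by DESeq2 (adjusted p = 0.00203 and 0.00371), where 0.456% of 19497 genes were called lower; Runx2 was not (adjusted p = 0.0713). The edgeR intervals allow a CSD level between 0.525 and 0.851 of the control level for Runx2, between 0.343 and 0.747 for Bglap and between 0.342 and 0.762 for Spp1.

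Few tested genes had log2 fold changes as low as those of Bglap and Spp1. As the 3 genes were chosen with earlier results of these data known, their ranks are descriptions and no support for a difference. A lower log2 fold change than that of Bglap was found for 2.32% of the tested genes, than that of Spp1 for 2.43% and than that of Runx2 for 8.81%. The median over all tested genes was 0.00, and 49.7% of them had a log2 fold change below 0. A smaller unadjusted p than those of the 3 genes was found for 1.52% (Bglap), 1.84% (Spp1) and 1.88% (Runx2). The biological coefficient of variation that edgeR fitted was 15.7% for Runx2, 23.3% for Bglap and 23.9% for Spp1, against 18.0%, 20.9% and 20.8% for the trend over genes of like abundance. Runx2 thus varied somewhat less, and both matrix protein genes somewhat more, than that trend.

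**Figure D2:**
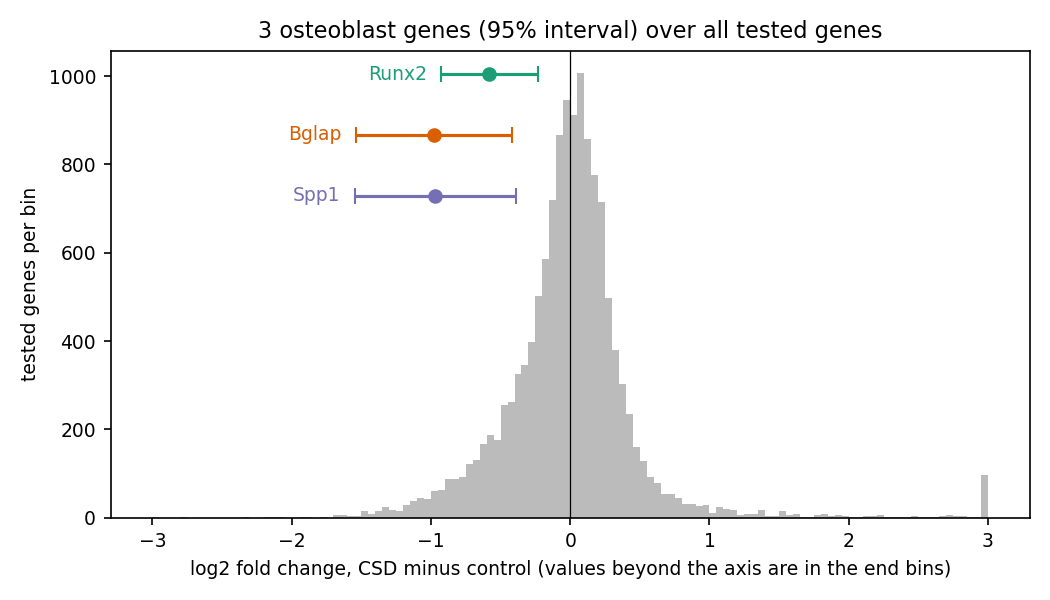
Log2 fold changes of CSD minus control for the 13431 tested genes (grey bars, genes per bin, values beyond 3 in either direction in the end bins) with those of Runx2, Bglap and Spp1 above them (points with 95% intervals; their height has no meaning). The intervals of the 3 genes, which are not adjusted over the tested genes, lie below 0. Bglap at -0.98 and Spp1 at -0.97 sit in the lower tail.

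Whether the matrix protein genes differed more than Runx2 was examined with the ratio of read counts within each library, which does not depend on how libraries are scaled. Transcript lengths were not known, so a ratio of reads is not a ratio of transcript levels, and only its difference between groups was tested. Bglap had 18.7, 28.6 and 34.0 reads for each Runx2 read in controls 1, 2 and 3. In CSD 1, 2 and 3 it had 22.0, 20.7 and 19.0. The groups overlapped, since control 1 had the lowest ratio of all. The mean log2 ratio was 4.72 ± 0.45 for controls and 4.36 ± 0.11 for CSD (SD, n = 3 each), a difference of -0.36 (two-sided exact permutation test, p = 0.4; 0.6 adjusted over the 3 ratios).

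Spp1 had 18.3, 24.9 and 21.4 reads for each Runx2 read in controls 1, 2 and 3. In CSD 1, 2 and 3 it had 13.3, 19.5 and 17.3. Control 1 lay below CSD 2, and the other controls lay above every CSD library. The mean log2 ratio was 4.42 ± 0.22 for controls and 4.05 ± 0.28 for CSD (SD, n = 3 each), a difference of -0.37 (two-sided exact permutation test, p = 0.2; adjusted 0.6).

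The ratio of Bglap to Spp1 was 1.02, 1.15 and 1.59 in controls 1, 2 and 3. In CSD 1, 2 and 3 it was 1.65, 1.06 and 1.09. Control 3 and CSD 1 were high and the other 4 libraries close to each other. The mean log2 ratio was 0.30 ± 0.33 for controls and 0.31 ± 0.36 for CSD (SD, n = 3 each), a difference of 0.02 (two-sided exact permutation test, p = 1; adjusted 1). The smallest p that 3 libraries against 3 allow is 0.1, above the threshold of 0.05. The test could therefore not show that the matrix protein genes differed more than Runx2. Nor does any of these p-values show that the genes differed alike.

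**Figure D3:**
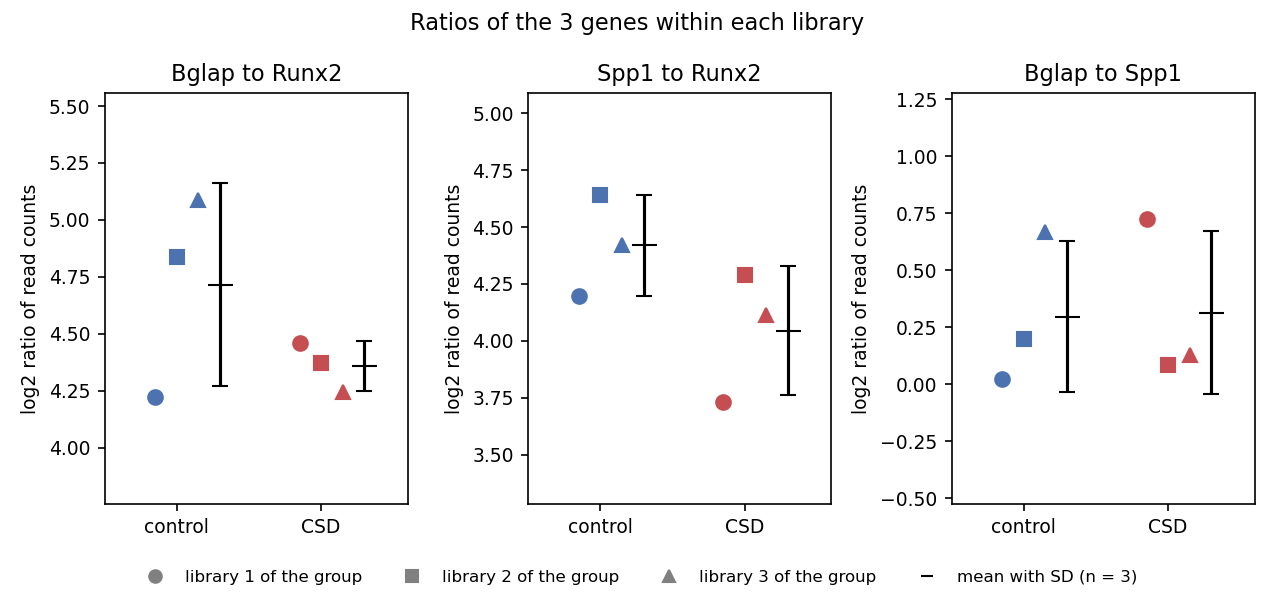
Log2 ratio of read counts within each library for Bglap to Runx2, Spp1 to Runx2 and Bglap to Spp1, with the mean and SD of each group of 3; the axes span the same log2 range but do not start at 0. The groups overlap in each panel, and Bglap to Spp1 is high in control 3 (0.67) and CSD 1 (0.73).

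The profiles of the 3 genes across the libraries differed in places, and whether they differed beyond the spread of libraries was not tested. Relative to its mean over the 6 libraries, the log2 CPM of control 1 was 0.18 for Runx2, -0.14 for Bglap and 0.14 for Spp1. In control 3 it was 0.08 for Runx2, 0.63 for Bglap and 0.27 for Spp1, and in CSD 1 it was -0.29, -0.37 and -0.80. Control 2 was the highest library for each gene, at 0.58, 0.89 and 0.99. The root mean square difference between such profiles over the 6 libraries, a measure of likeness, was 0.28 between Runx2 and Spp1, 0.28 between Bglap and Spp1 and 0.32 between Runx2 and Bglap. Seen from Spp1, 0.663% of the other tested genes lay nearer than Runx2 and 0.693% nearer than Bglap; seen from Bglap, 2.40% lay nearer than Spp1. Seen from Runx2, whose own differences between libraries were smaller, 13.9% lay nearer than Spp1 and 24.6% nearer than Bglap. Nearness on this measure includes the lower CSD level that all 3 genes had.

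The tested gene nearest to Bglap was ENSRNOG00000006403, at a root mean square difference of 0.055 where the median gene lay at 0.60. It had 7.30, 15.8 and 12.6 CPM in controls 1, 2 and 3 and 6.18, 6.08 and 6.12 CPM in CSD 1, 2 and 3. These values repeat the near position of control 1 and the close grouping of the CSD libraries, as a gene picked for that likeness must. They rest on only 52 to 149 reads. The gene nearest to Runx2 was ENSRNOG00000027151, at 0.075 where the median gene lay at 0.40. It had 16.5, 23.2 and 16.9 CPM in controls 1, 2 and 3 and 13.2, 12.0 and 14.5 CPM in CSD 1, 2 and 3. Neither passed the threshold (edgeR, adjusted p = 0.292 and 0.362). These are descriptions over 6 libraries, and the symbols of both IDs are not known here.

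The direction was the same under every alternative tried, which is no further evidence for it. Every CSD library lay below every control, so leaving out a library could hardly reverse it. The other alternatives refitted the same libraries. Over 12 alternatives each gene had a lower level in CSD in all 12, with log2 fold changes from -0.71 to -0.41 for Runx2, from -1.22 to -0.76 for Bglap and from -1.13 to -0.66 for Spp1. The adjusted p was under 0.05 in 0 of 12 for Runx2, 2 of 12 for Bglap and 1 of 12 for Spp1. The value nearest to 0 came without control 2 for each gene, where Runx2 stood at -0.41, Bglap at -0.76 and Spp1 at -0.66. Scaling to library totals alone moved the median of all genes to -0.13, and relative to it the log2 fold changes were -0.58 for Runx2, -0.98 for Bglap and -0.97 for Spp1.

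**Figure D4:**
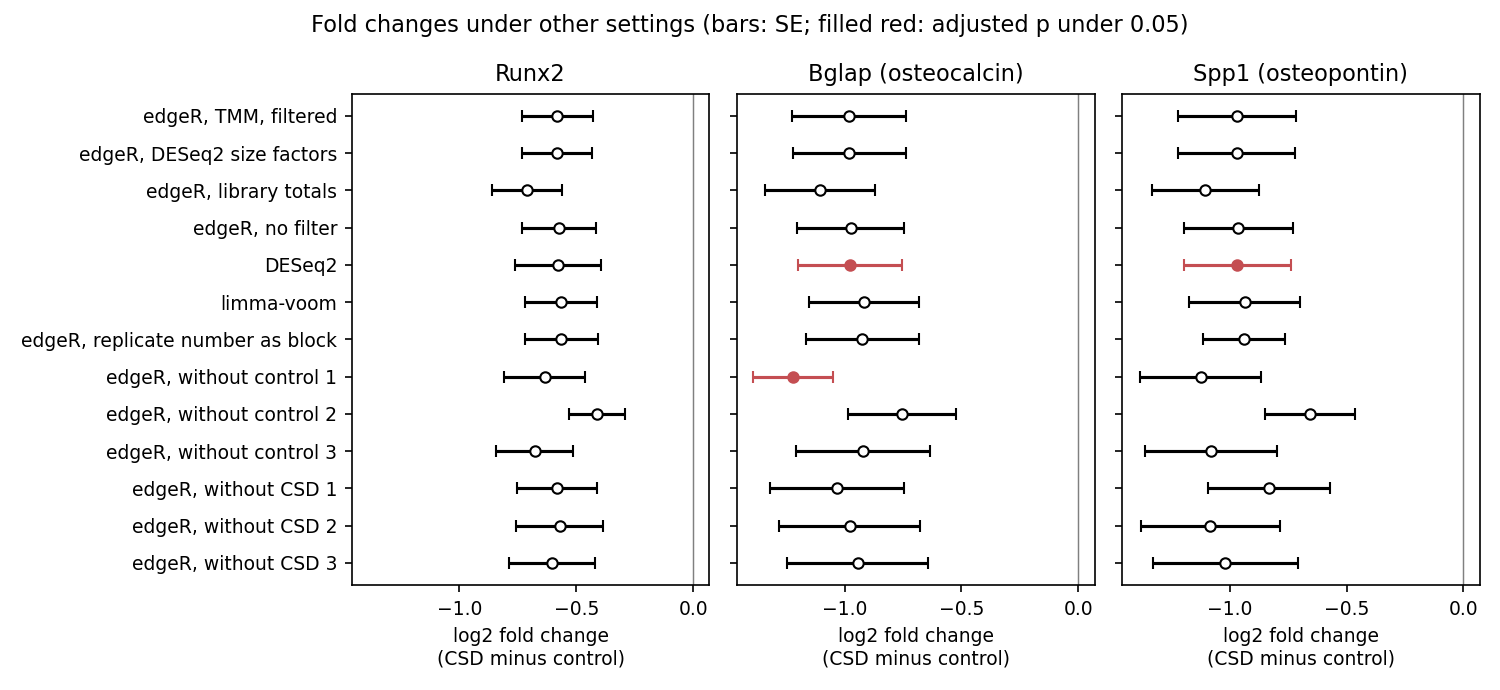
Log2 fold change of CSD minus control with its SE (bars) for Runx2, Bglap and Spp1 under the main fit and 12 alternatives; filled red points had an adjusted p under 0.05. Every point lies below 0, and the filled points are Bglap and Spp1 with DESeq2 and Bglap without control 1.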

How the data were processed

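Raw gene counts of 3 control and 3 CSD femur libraries were deposited by the authors in 1 table. Build rn6, HISAT2 2.2.1 and HTSeq 0.12.4 are named, per the submitters' processing notes. The role of each tool, the annotation release and the strand mode of counting were not given in the sources used here. In the GRCr8 annotation Runx2 overlaps Supt3h and LOC120094793, so without a known strand setting their reads may not be told apart; no gene overlaps Bglap or Spp1 there. The 5 closing rows that name no gene held 61.8% to 63.8% of the reads and stayed out of library sizes and tests.

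Genes were filtered with edgeR's filterByExpr (13431 kept, all 3 genes among them), scaled with TMM and compared with edgeR 4.0.16's quasi-likelihood test (R 4.3.3) with no covariate, adjusted by the Benjamini-Hochberg method over all tested genes. Fold changes used a prior count of 0.125 and their SE comes from the F statistic (the size of the fold change over the root of F); profiles used log2 CPM with a prior count of 2. Counting error is 1 over the square root of the reads, averaged over a group, and covers counting only. The test was checked on simulated data, where recovery was required only for changes larger than those of the 3 genes. Alternatives were DESeq2 size factors, library totals, no filter, DESeq2 1.42.0, limma-voom (limma 3.58.1), a block for the replicate number, and each library left out in turn.

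The 3 genes and the lists were chosen with earlier results of these data known. Besides the 3 genes, the rule for named genes took the gene of most similar profile, at most 2 IDs in each direction. Lists of osteoblast, osteocyte, Wnt, BMP, osteopontin receptor and cell type marker genes were not tested. The reason is that 0 IDs of the count table could be matched to symbols. For want of transcript lengths, a ratio of reads between genes is not a ratio of their levels. Gene length cancels only in the difference of a log2 ratio between the groups.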

Additional observations from a re-analysis of the deposited data

How the results depend on the processing

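With DESeq2 the log2 fold changes of Bglap and Spp1 were -0.98 and -0.97 and passed the threshold (adjusted p = 0.00203 and 0.00371), as did Bglap without control 1 (-1.22; edgeR, adjusted p = 0.0371). The cause of either was not tested. With 1 library left out the log2 fold change ran from -0.68 (without control 3) to -0.41 (without control 2) for Runx2, from -1.22 (without control 1) to -0.76 (without control 2) for Bglap and from -1.13 (without control 1) to -0.66 (without control 2) for Spp1. The count of genes called over the whole table, 0 in edgeR, became 112 without a filter, 298 with DESeq2 and 104 with a replicate block, and ran from 0 to 230 with 1 library left out, with 151 without control 1, 230 without CSD 1 and 73 without CSD 3. It stayed at 0 with DESeq2 size factors, library totals and limma-voom. Of the genes called, 8 were lower in CSD without a filter, 89 with DESeq2 and 1 with a replicate block. Those lower in CSD were 72 without control 1, 194 without CSD 1 and 0 without CSD 3.

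With the replicate block the log2 fold changes were -0.56 for Runx2, -0.92 for Bglap and -0.94 for Spp1 (edgeR, adjusted p = 0.269, 0.257 and 0.108), so it changed no call of the 3 genes. The labels do not say that a number marks a shared litter or day, and over the tested genes the deviations from the group means had correlations of -0.01, -0.06 and 0.17 for numbers 1, 2 and 3. Paired by number, the ratios gave exact sign-flip p-values of 0.5 for Bglap to Runx2, 0.25 for Spp1 to Runx2 and 1 for Bglap to Spp1, where 0.25 is the smallest possible.

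With 1 library left out the difference in log2 ratio ran from -0.60 to -0.17 for Bglap to Runx2, from -0.50 to -0.22 for Spp1 to Runx2 and from -0.19 to 0.20 for Bglap to Spp1. The last changed sign without control 1 (-0.12), control 2 (-0.03) or CSD 1 (-0.19). Bglap to Runx2 without control 1 no longer overlapped between the groups (-0.60, exact permutation test, p = 0.1, the smallest possible). Runx2 rests on 391 to 792 reads per library, so counting error is 3.55% to 5.06% of each value; for Bglap and Spp1 it is at most 1.39%. The tests of osteoblast gene lists were not run, as their IDs could not be matched to symbols here.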
